A study of Mus musculus with 6 samples.

Results

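Mpo, Elane, Prtn3, Ctsg, Ms4a3, Cebpa, Cebpd, Cebpe, Gfi1 and Irf8 are genes by which haematologists place a cell along the path from a myeloid progenitor to a neutrophil or a monocyte. These 10 genes were listed by name and looked up by Ensembl identifier among the 55401 genes of a mouse RNA-seq expression table, and all 10 were present. Their levels over 6 libraries were used to describe where the cells stood among myeloid progenitors, and their levels in control and metformin-treated libraries were then compared. Only 2 of them, Gfi1 and Ctsg, reached a mean of 1 FPKM (fragments per kilobase of transcript, scaled to the number of mapped fragments in the library), and no member passed the test between the groups.

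The libraries came from cultures labelled as female germline stem cells (FGSCs) of the C57BL/6 strain, kept on inactivated STO mouse fibroblast feeders for more than 20 passages in medium with leukemia inhibitory factor, epidermal growth factor, basic fibroblast growth factor and glial cell line-derived neurotrophic factor. The control group held 3 libraries of untreated cells, and the metformin group held 3 libraries of cells given 1 μM metformin for 24 h. Metformin is a biguanide used against type 2 diabetes, and the study asked how it acts on FGSC proliferation. The labels do not say whether the replicates were separate cultures, so every p-value measures the spread between these libraries, which may be technical.

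In textbook myelopoiesis, C/EBPα takes a progenitor into the granulocyte and monocyte lineage, together with PU.1 (gene Spi1). GFI1, a transcriptional repressor, then favours neutrophils, and IRF8 favours monocytes and dendritic cells. The promyelocyte fills its azurophil granules with myeloperoxidase and the serine proteases neutrophil elastase, proteinase 3 and cathepsin G, MS4A3 marks the granulocyte and monocyte progenitor, and C/EBPε drives the later stage in which secondary granules are made.

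Depth, estimated from the steps between low FPKM values of short single-exon genes, was 13400000 to 14030000 fragments per library. With this depth, the level of a gene was turned back into fragments for 9 of the 10 members, rounded to the nearest whole number. The label was checked against marker genes. Here and below, marker and list genes are set against a threshold by their mean over the 6 libraries. Of 7 germ cell markers, among them Ddx4, none reached 1 FPKM and 4 were at 0. Their summed level was 0.48 to 1.38 FPKM in control and 0.33 to 0.93 FPKM in metformin libraries. The highest, Ifitm3, had a mean of 0.662 FPKM but was at 1.32 FPKM in control replicate 1. All 6 genes shared by blood cells, among them Ptprc (CD45) and Coro1a, were at 10 FPKM or above, with sums of 444.7 to 450.7 FPKM in control and 444.5 to 461.9 FPKM in metformin libraries. None of 9 fibroblast markers of the feeder reached 1 FPKM, and their sums were 0.76 to 0.95 and 0.73 to 0.82 FPKM. Apart from Ifitm3, the germ cell markers were thus absent or nearly so from all 6 libraries, and the cells are called the labelled cultures from here on. For its cultured FGSCs the study reported Pou5f1, Ddx4, Dppa3, Ifitm3, Dazl and Prdm1 by RT-PCR, and MVH, the Ddx4 protein, by immunofluorescence. Those assays are unlike FPKM, and why they differ from the levels here was not tested. In bulk RNA, fewer cells of a type and less RNA per cell cannot be told apart.

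The promoters of the 3 granule protease genes Ctsg, Elane and Prtn3 are shown because all encode serine proteases of azurophil granules. They stood at very different levels, 1 well detected and the others near 0. Each run holds the 250 bases before the RefSeq start in build GRCm38.p6, on the gene's own strand, 5′ to 3′. Capitals mark the letters GAGGAA (a PU.1 motif), AACGG (a MYB motif) and ACCACA, which is the RUNX motif TGTGGT read on the other strand. The Ctsg run is chr14:56102575-56102824, minus strand, the Elane run is chr10:79886062-79886311, plus strand, and the Prtn3 run is chr10:79879417-79879666, plus strand. Only the Ctsg run lies wholly outside the gene span for which the level was deposited. The last 65 bases of the Elane run, with its AACGG, lie inside that span. The whole Prtn3 run lies inside the span of Prtn3, chr10:79874476-79883174.
Ctsg: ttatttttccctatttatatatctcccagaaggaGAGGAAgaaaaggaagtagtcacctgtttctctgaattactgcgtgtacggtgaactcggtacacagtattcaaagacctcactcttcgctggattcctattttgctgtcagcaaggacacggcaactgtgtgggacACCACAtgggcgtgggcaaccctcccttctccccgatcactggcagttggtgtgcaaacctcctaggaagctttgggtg
Elane: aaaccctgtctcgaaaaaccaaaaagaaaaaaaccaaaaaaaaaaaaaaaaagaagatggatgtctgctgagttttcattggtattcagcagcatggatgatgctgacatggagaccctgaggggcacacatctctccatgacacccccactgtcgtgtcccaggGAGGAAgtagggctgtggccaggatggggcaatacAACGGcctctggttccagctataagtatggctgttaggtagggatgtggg
Prtn3: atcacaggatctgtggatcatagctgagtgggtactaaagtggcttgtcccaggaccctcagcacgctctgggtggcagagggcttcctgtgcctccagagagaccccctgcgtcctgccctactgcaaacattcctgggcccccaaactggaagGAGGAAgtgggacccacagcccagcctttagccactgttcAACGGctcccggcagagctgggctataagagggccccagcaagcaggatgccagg
GAGGAA was found 216 to 211 bases before the start of Ctsg, 85 to 80 bases before that of Elane and 95 to 90 bases before that of Prtn3. Mpo held it too, and the letters occurred on either strand in 23.3% of all 32851 RefSeq promoter windows of this length. AACGG stood 50 to 46 bases before the Elane start and 55 to 51 bases before the Prtn3 start, was also present in the windows of Irf8 and Cebpa, and occurred in 14.5% of all windows. TGTGGT was found in the Ctsg window alone among the members with a window, 79 to 74 bases before the start, and in 4614 of the 32851 windows. The C/EBP motif TTGCNNAA was found in 1 member window, that of Gfi1, and in 9.56% of all windows. For each factor only this 1 form of the letters was searched. A site spelt otherwise would be missed, so the other windows are not shown to lack a C/EBP site. Windows were at hand for 8 of the 10 members, Cebpd and Cebpe being without one. The PU.1 letters were therefore present before the RefSeq start of Ctsg, which was well detected, and before those of Elane and Prtn3, which were not. A match describes the sequence, not a bound site.

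The granule proteins themselves were examined first. Ctsg (ENSMUSG00000040314, GRCm38 chr14:56099881-56102574, minus strand) encodes cathepsin G, a serine protease of azurophil granules that mast cells store as well. It measured 3.83, 5.54 and 4.02 FPKM in control replicates 1 to 3, and 4.41, 5.40 and 5.89 FPKM in metformin replicates 1 to 3. Control replicate 2 lay among the metformin libraries, and the groups overlapped. After rounding, these levels corresponded to 51, 77 and 56 fragments in control and 62, 76 and 81 fragments in metformin libraries. Most were not whole before rounding (76.6 in control replicate 2), so these counts are approximate. Counting error alone was wide, with an exact Poisson 95% interval of 60.8 to 96.2 for the 77 fragments of control replicate 2. Intervals of this kind cover counting error only.

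Elane (ENSMUSG00000020125, chr10:79886247-79888215, plus strand), which encodes neutrophil elastase, was at 0 in all 6 libraries. A count of 0 allowed up to 3 fragments per library, or 0.232 to 0.243 FPKM. Prtn3 (ENSMUSG00000057729, chr10:79874476-79883174, plus strand), which encodes proteinase 3, was at 0.04, 0.00 and 0.04 FPKM in control and 0.08, 0.00 and 0.00 FPKM in metformin libraries, 4 fragments in all. Mpo (ENSMUSG00000009350, chr11:87793581-87804413, plus strand), which encodes myeloperoxidase, was at 0.02 FPKM in each control library and at 0 in each metformin library, which is 1 fragment in each control library. Ms4a3 (ENSMUSG00000024681, chr19:11629496-11640851, minus strand), a membrane protein of granulocyte and monocyte progenitors, was at 0.04 FPKM in each control library and at 0.04, 0.08 and 0.00 FPKM in metformin libraries, 6 fragments in all. None of these 4 genes had more than 2 fragments in any library.

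The transcription factors divided in the same manner. Gfi1 (ENSMUSG00000029275, chr5:107716657-107726036, minus strand) was the highest of the 10 genes, at 14.58, 13.60 and 13.17 FPKM in control and 14.82, 15.56 and 14.66 FPKM in metformin libraries, which rested on 598 to 706 fragments per library. Its mean level lay above that of 63.3% of the 10661 genes that averaged 1 FPKM or more, whereas that of Ctsg lay above 31.5% of them. Irf8 (ENSMUSG00000041515, chr8:120736358-120756694, plus strand), the factor of the monocyte and dendritic cell path, was at 0 in 5 libraries and at 0.01 FPKM, 1 fragment, in metformin replicate 3. The same-strand gene Gm20388 spans Irf8 but shared 0 exonic bases with it in the GENCODE M1 annotation.

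Cebpa (ENSMUSG00000034957, chr7:35119293-35121928, plus strand) was at 0.03 FPKM in control replicate 3 and in metformin replicate 2 and at 0 in the other libraries, 2 fragments in all. Cebpe (ENSMUSG00000052435, chr14:54710360-54712174, minus strand) was at 0.24, 0.58 and 0.17 FPKM in control and 0.11, 0.06 and 0.18 FPKM in metformin libraries. These were 4, 10 and 3 fragments against 2, 1 and 3 fragments, and the groups overlapped. Cebpd (ENSMUSG00000071637, chr16:15887286-15891031, plus strand), an acute-phase and stress-responsive family member, was at 0.10, 0.04 and 0.08 FPKM in control and 0.23, 0.11 and 0.14 FPKM in metformin libraries. Every metformin library lay above every control library, but even with the whole gene span counted as transcript the values amount to no more than 12 fragments in any library.

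Over the 6 libraries the order of the levels per length was Gfi1 at 14.4 FPKM, Ctsg at 4.85 FPKM and Cebpe at 0.223 FPKM, and the ranges of these 3 genes did not overlap each other. Cebpd followed at 0.117 FPKM with a range that overlapped that of Cebpe, and below it each neighbour overlapped the next. Within a library, the Gfi1 level was 3.04 ± 0.532 times that of Ctsg (SD, n = 6 libraries, range 2.45 to 3.81). The 6 members with at most 2 fragments in any library, namely Mpo, Elane, Prtn3, Ms4a3, Cebpa and Irf8, together held 16 fragments over the 6 libraries.

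**Figure D1:**
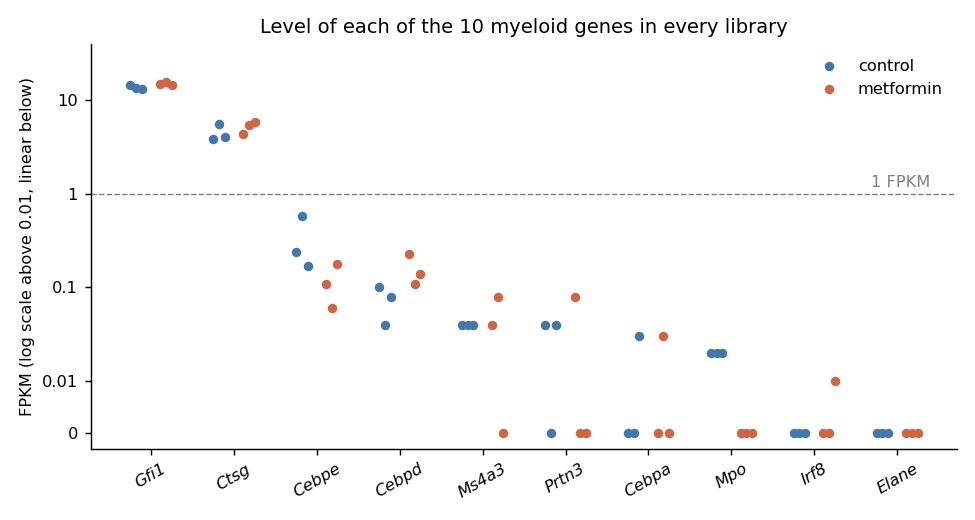
FPKM of the 10 genes in each library, 1 point per library, control in blue and metformin in orange, on an axis that is logarithmic above 0.01 and linear below. Gfi1 and Ctsg lie above 1 FPKM in all 6 libraries, Cebpe and Cebpd between 0.04 and 0.58 FPKM, and the other 6 genes at or below 0.08 FPKM.

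Some members overlap a gene on the opposite strand, and whether fragments were counted by strand is not given in the sources used here, so the partners cannot be told apart in the shared bases. Gfi1 shared 880 bases of its span with A430072P03Rik, which was at 1.32 FPKM, and 101 of its 3249 exonic bases in GENCODE M1. Cebpd shared 1808 bases of its span with 2310008H04Rik, which was at 3.29 FPKM, but 0 exonic bases in GENCODE M1, where the Cebpd model is partial. Mpo shared 512 of its 3424 exonic bases with Gm11505, which was at 0. Genes in use in every cell were not at 0 (lowest value 4.33 FPKM, for Tbp, among 8 looked up), although Gapdh stood at only 10.1 FPKM and Ppia at 7.83 FPKM on this scale. Both have many processed pseudogenes, and how fragments that match several places were handled was not tested.

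The chromosomal neighbours of the proteases were then compared. Ctsg lies in a cluster of granule protease genes on chromosome 14, of which 15 were listed over 320.8 kb, and 2 of these reached 1 FPKM while 6 were at 0. Gzmb, which encodes granzyme B and stands at the end of the cluster, was at 20.2 ± 1.23 FPKM in control and 18.1 ± 1.42 FPKM in metformin libraries (SD, n = 3), and within a library its level was 4.09 ± 0.962 times that of Ctsg (SD, n = 6). Its log2 fold change was -0.15, and it did not pass the test. Mcpt8, the basophil protease gene next to Ctsg, was at 0.808 FPKM. Members of this cluster are similar in sequence, so a low level here carries the uncertainty of how shared fragments were assigned. Elane and Prtn3 lie side by side with Cfd on chromosome 10, and none of these 3 reached 1 FPKM, although Ptbp1 and Med16, which flank them, did. Of 15 named Ms4a genes around Ms4a3, none reached 1 FPKM, 9 were at 0, and the highest was Ms4a2, the IgE receptor β chain, at 0.897 FPKM.

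**Figure D2:**
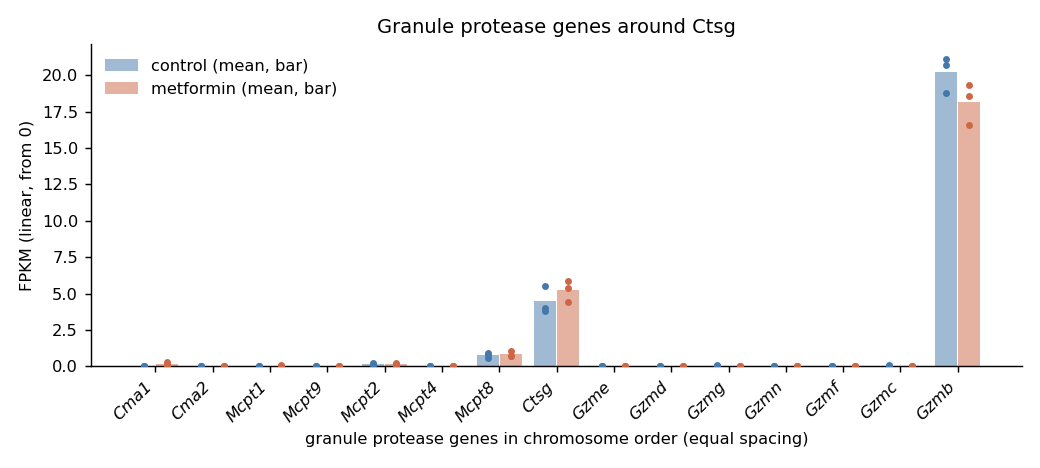
FPKM of the 15 granule protease genes around Ctsg in chromosome order, bars for the mean of 3 libraries and points for the libraries, on a linear axis from 0. Gzmb and Ctsg stand out from the other genes of the cluster, of which Mcpt8 was the highest at 0.808 FPKM.

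The other components of the azurophil granule were divided as well. Of 9 granule companions, 4 reached 1 FPKM and 4 were under 0.1 FPKM. These were Cst7 (cystatin F, an inhibitor of the protease-activating cathepsins) at 214 FPKM, Srgn (serglycin, the proteoglycan on which granule proteases are packed) at 76.3 FPKM, Ctsc (cathepsin C, which activates the granule proteases by trimming them) at 74.4 FPKM and Cd63 at 69.2 FPKM. Lyz1 and Fcnb were at 0, and Bpi and Prss57 were under 0.1 FPKM. Lyz2, the lysozyme of macrophages and neutrophils, was at 0.85, 0.99 and 1.25 FPKM in control and 0.65, 0.49 and 0.33 FPKM in metformin libraries. All 3 metformin values of Lyz2 were below the control values, on a mean that missed the 1 FPKM needed for testing. Of 6 inhibitors of these proteases, 3 reached 1 FPKM, led by Serpinb1a at 132 FPKM, a cytosolic inhibitor of elastase, proteinase 3 and cathepsin G. Its level within a library was 28.01 ± 4.63 times that of Ctsg (SD, n = 6).

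Other C/EBP family members and partners were much higher than Cebpa, Cebpd and Cebpe. Cebpb, a factor of macrophages and of granulocyte production under stress, was at 24.40, 25.15 and 25.06 FPKM in control and 27.90, 26.41 and 26.21 FPKM in metformin libraries, Cebpg at 13.9 FPKM over all, and Atf4, a stress-response factor that can pair with C/EBP proteins, at 217 FPKM. Spi1, whose product PU.1 works beside C/EBPα, was at 23.2 FPKM with SDs of 0.282 in control and 0.168 in metformin libraries. The paralog Gfi1b, a regulator of the erythroid and megakaryocyte lineages, was close to Gfi1, whose level was 1.25 ± 0.0390 times that of Gfi1b (SD, n = 6). All 4 listed corepressors through which GFI1 acts were between 16.4 and 28.2 FPKM, with Hdac2 the highest and Hdac1 the lowest. Cebpa and Irf8 were near 0 in the same libraries in which Spi1, Runx1 at 13.95 FPKM and Gfi1 were all above 10 FPKM. Whether the same cells expressed these 3 genes cannot be told from bulk RNA.

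Genes that lie downstream in granulocyte and monocyte development were mostly low as well. Of 16 secondary granule and late neutrophil genes, 13 were under 0.1 FPKM and 5 at 0, and only Cxcr2, a chemokine receptor of neutrophils, reached 1 FPKM, at 34.2 FPKM. Among 6 receptors that C/EBP factors and PU.1 are known to control, Csf2rb, the shared β chain of the GM-CSF, IL-3 and IL-5 receptors, was the highest at 146 FPKM and Il4ra followed at 79.6 FPKM, whereas Csf3r, the G-CSF receptor, was at 0.0133 FPKM and Csf1r, the M-CSF receptor, at 0.0117 FPKM. Of 6 NADPH oxidase subunits, 5 reached 1 FPKM, with Cyba at 79.8 FPKM, but Cybb, the catalytic subunit of phagocytes, was at 0 in all libraries. Of 8 genes tied to IRF8 and antigen presentation, 3 reached 1 FPKM, with Cst3 at 69.3 FPKM and Ctss, H2-Aa, H2-Ab1 and Ciita among the rest.

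To set the 10 genes among neighbouring lineages, marker lists were summed up in the same way. Of 11 neutrophil and monocyte progenitor genes, 2 reached 1 FPKM, Plac8 at 280 FPKM and Fcgr3 at 22.8 FPKM, and 5 were under 0.1 FPKM. Of 10 mast cell markers, 3 reached 1 FPKM, namely Cpa3 (a mast cell carboxypeptidase) at 352 FPKM, Kit at 118 FPKM and Mitf at 11.6 FPKM, but the tryptase genes Tpsb2 and Tpsab1, the chymase gene Mcpt4 and Fcer1a were at 0. Of the markers of eosinophils, basophils, dendritic cells and lymphoid cells, none reached 1 FPKM. In the monocyte and macrophage list 2 of 10 did, with Adgre1 (F4/80) at 58.3 FPKM, in the erythroid list 2 of the 6 found, with Epor at 12.7 FPKM, and in the megakaryocyte list 3 of 7, with Itga2b at 38.4 FPKM. No lineage list had more than a minority of its genes above 1 FPKM except that shared by all blood cells. Among the 10 genes, Gfi1 and Ctsg were above 1 FPKM, and Mpo, Elane, Prtn3, Ms4a3, Cebpa and Irf8 were at or near 0. Around them Spi1, Gfi1b, Csf2rb, Plac8, Cpa3 and Kit were high, with Csf3r and Csf1r near 0. Cebpb, Adgre1, Itga2b, Cxcr2 and Epor, from other lists or lineages, were above 10 FPKM too. Plac8, Csf2rb, Cpa3 and Kit stand in lists of which most genes were under 1 FPKM, so they name no cell type.

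**Figure D3:**
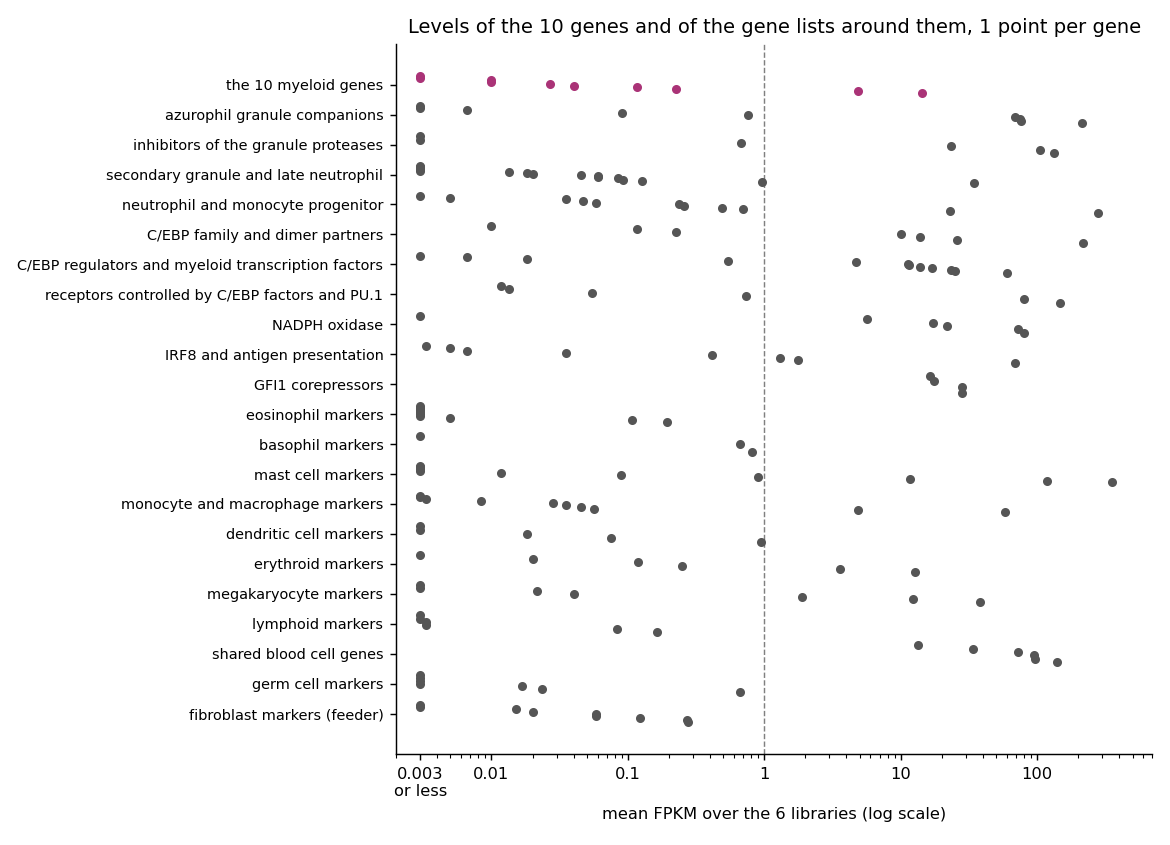
Mean FPKM over the 6 libraries for every gene of each list, 1 point per gene, on a log axis on which values of 0.003 or less are drawn at 0.003, with a dashed line at 1 FPKM. The 10 myeloid genes have 2 points to the right of the line, the azurophil companions 4 and the shared blood cell genes all 6.

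The second question was whether metformin changed these genes. limma was applied to log2(FPKM + 1) of the 10661 genes that averaged 1 FPKM or more, with Benjamini-Hochberg adjustment over all of them, and fold changes on this scale understate the change of low genes. Of the 2 members that could be tested, 0 passed an adjusted p of 0.05, beside a background of 3 genes, or 0.0281% of all tested genes. At an unadjusted p of 0.05, 1 of the 2 members passed, which was Gfi1, beside 10.8% of all tested genes, and no other tool was run.

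Gfi1 had a mean of 13.8 ± 0.723 FPKM in control and 15.0 ± 0.480 FPKM in metformin libraries (SD, n = 3), a log2 fold change of 0.12 with SE 0.04 and a 95% interval of 0.01 to 0.22. The adjusted p was 0.424 by limma. Every metformin library lay above every control library, by as little as 0.08 FPKM between metformin replicate 3 and control replicate 1. Of all tested genes, 17.0% had groups that did not overlap, so that 1 of 2 members in this state is not a result about the members. A430072P03Rik, the overlapping gene on the other strand, was at 1.23 FPKM in control and 1.40 FPKM in metformin libraries, and its part in the Gfi1 values was not tested.

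Ctsg had a mean of 4.46 ± 0.937 FPKM in control and 5.23 ± 0.754 FPKM in metformin libraries (SD, n = 3). Its log2 fold change of 0.20 had SE 0.13, a 95% interval of -0.12 to 0.51 and an adjusted p of 0.631 by limma, so the difference was not larger than the spread between replicates. Single libraries decided its size, since the log2 fold change was 0.33 without control replicate 2, 0.30 without metformin replicate 1, 0.12 without metformin replicate 3 and 0.11 without control replicate 1. It did not pass the adjusted threshold with any library left out.

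The 8 members under 1 FPKM were compared library by library. Of the 7 that were above 0 in some library, 2 had groups that did not overlap, beside 4.48% of all genes at such low levels. Groups can be free of overlap only where every library of 1 group is above 0, which was not required of those genes. The 2 of 7 is therefore not a result about the members. Cebpd was at 0.0733 ± 0.0306 FPKM in control and 0.16 ± 0.0625 FPKM in metformin libraries, with an exact permutation p of 0.1, which is the smallest p that 3 against 3 libraries allow. Mpo was the other, on a single fragment per control library against none, a difference under the limit that a count of 0 allows. Cebpe was at 0.33 ± 0.219 FPKM in control and 0.117 ± 0.0603 FPKM in metformin libraries, 17 against 6 fragments, with an exact permutation p of 0.2, and 10 of the 17 fragments came from control replicate 2. Without that library the difference of mean log2(FPKM + 1) moved from -0.24 to -0.11. For Elane, Prtn3, Ms4a3, Cebpa and Irf8 no difference was detectable at this depth.

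**Figure D4:**
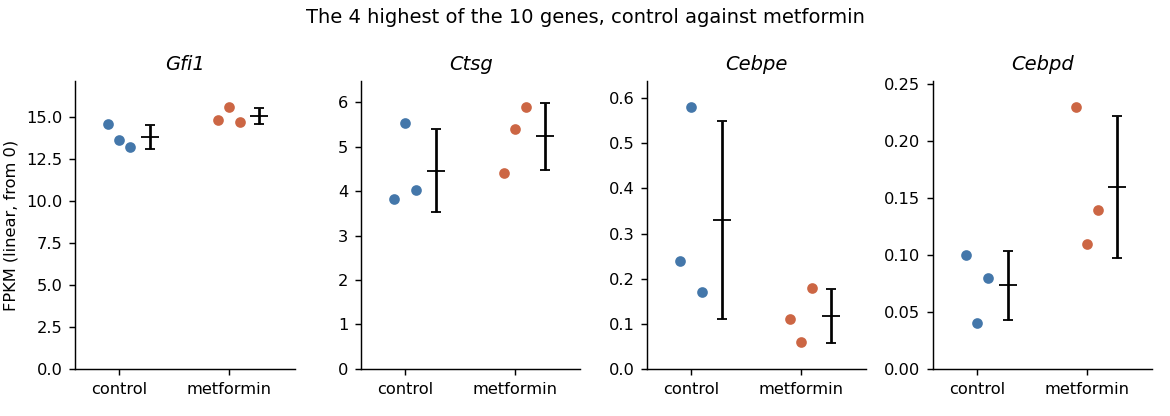
FPKM of Gfi1, Ctsg, Cebpe and Cebpd in the 3 control and 3 metformin libraries, points for libraries and black bars for mean ± SD, each panel on its own linear axis from 0. The groups overlap for Ctsg and Cebpe, and do not overlap for Gfi1 and Cebpd.

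Among the genes around the members, 2 passed the test, and both rose. Over all 10661 tested genes, 3 passed, or 0.0281%. The lists were chosen with earlier results of these data known, so the presence of these 2 genes in them is no result about the lists. Ddit3, which encodes CHOP, a C/EBP family member that dimerizes with the others and is induced by stress, was at 7.32, 6.90 and 7.77 FPKM in control and 12.39, 13.45 and 12.86 FPKM in metformin libraries, with a log2 fold change of 0.74 (SE 0.05) and an adjusted p of 0.00453 by limma. Trib3, a pseudokinase of the Tribbles family, was at 6.42, 6.92 and 6.33 FPKM in control and 15.89, 16.43 and 15.82 FPKM in metformin libraries, with an adjusted p of 0.000127 by limma. Its relatives Trib1, which was at 0.54 FPKM, and Trib2, which was at 0, are the ones known to promote degradation of C/EBPα.

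Of the 7 genes in the list of C/EBP family and dimer partners, 4 could be tested, of which 1 rose, Ddit3, and none fell, with a median log2 fold change of 0.14 beside 0.0041 over all tested genes. Cebpb had a log2 fold change of 0.11 and Atf4 one of 0.18, with adjusted p of 0.367 and 0.243 by limma. Both had groups that did not overlap, as did 17.0% of all tested genes, and since the list was chosen with earlier results known, its count and median describe it and are no result about the family. Cebpg had a log2 fold change of 0.04 and an adjusted p of 0.796. In the list of C/EBP regulators and myeloid transcription factors, 8 of 12 could be tested, of which 1 rose, Trib3, and none fell, with a median of 0.03. Gfi1b had a log2 fold change of 0.10 and an adjusted p of 0.535 by limma. In the other lists of granule, inhibitor, receptor, oxidase, antigen presentation, corepressor and lineage genes, no gene passed the test.

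**Figure D5:**
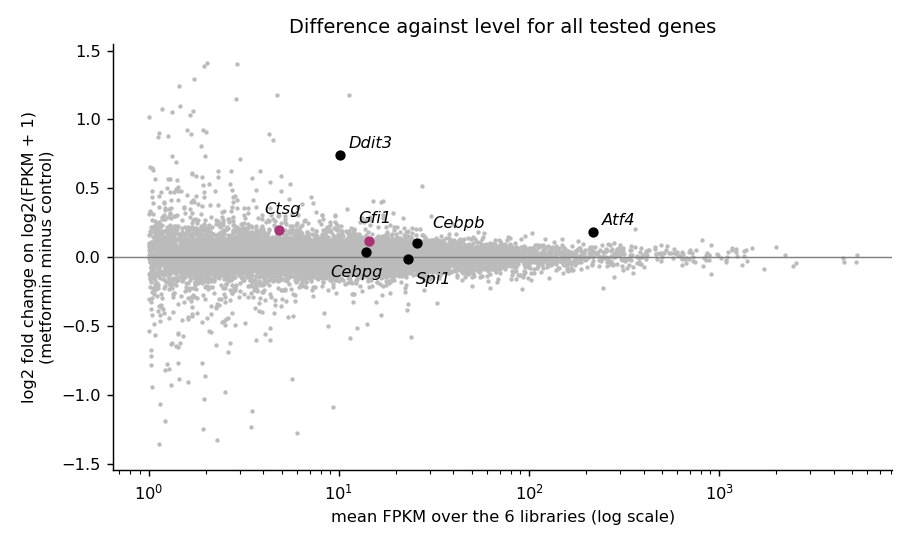
Log2 fold change on the log2(FPKM + 1) scale against mean FPKM (log axis) for the 10661 tested genes in grey, with Gfi1 and Ctsg in purple and family members or partners in black. Ddit3 at 0.74 stands above the bulk of genes of its level, while Gfi1 at 0.12 and Ctsg at 0.20 lie within or at the edge of it.

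The genes whose levels followed Gfi1 most closely over the 6 libraries were Slc35e3, Zc3h4 and Orai2. The root mean square difference from Gfi1 of log2 FPKM, each gene being centred on its own mean, was 0.0158, 0.0191 and 0.0210 among 10569 genes compared. With 6 libraries and 2 groups this likeness is a description only.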

How the data were processed

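RNA-seq was read for 3 control and 3 metformin libraries, grouped by their labels. The authors deposited one table of FPKM values, normalised for gene length and depth, for 55401 Ensembl genes with GRCm38 positions. The submitters' processing notes name HISAT2, DESeq2 and mm9 without roles, a build that differs from that of the positions. The labels and the study's methods name different library kits, and the counter and strand setting are not given in the sources used here. Symbols were found for 32589 genes by Ensembl identifier.

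Depth was estimated from single-exon genes under 400 bp, where FPKM moves in steps of 1 fragment (all values used lay within 0.1 of a whole number). Members were converted to fragments by their GENCODE M1 exon length, which is model-based, and rounded to whole numbers. Cebpd, whose M1 model is partial, was not converted. The floor for a count of 0 was set at 3 fragments, and Poisson intervals were two-sided at 95%.

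limma 3.58.1 in R 4.3.3 was fitted to log2(FPKM + 1) of genes averaging 1 FPKM or more, with no covariates, a mean-variance trend, two-sided tests and Benjamini-Hochberg adjustment at 0.05. The fit was tested on simulated data. Members below 1 FPKM were compared by two-sided exact permutation tests of mean log2(FPKM + 1). Alternatives covered the pseudocount, the filter, the scaling, the replicate block and each left-out library.

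The members and the 21 other gene lists were chosen with earlier results of these data known. Named were the members, their neighbours, partners and paralogs, the highest and lowest genes of each list, genes past the threshold, and the 3 genes most like the member with the smallest p. Other list genes named were chosen after their values were seen. Of 171 list genes, 4 were matched by an older symbol and 1 was not matched. Promoter motifs were searched on both strands of RefSeq windows (GRCm38.p6).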

Additional observations from a re-analysis of the deposited data

How the results depend on the processing

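The count of genes past the adjusted p of 0.05 (3 by limma, all higher) was 7 with no filter on low values, 4 higher and 3 lower, and 2 to 4 under the other 13 alternatives, with 3 to 4 when a library was left out. No member was past it under any of the 14 alternatives. The log2 fold change of Gfi1 ranged from 0.09 to 0.15 (adjusted p 0.315 to 0.634 by limma) and that of Ctsg from 0.11 to 0.33 (adjusted p 0.525 to 0.848) under 13 alternatives, Ctsg being too low for a filter at 10 FPKM; both ranges are also those with 1 library left out, and the 0.33 of Ctsg came without control replicate 2. Differences of mean log2 values ranged from 0.07 to 0.57 for Cebpd and from -0.91 to -0.11 for Cebpe over 9 alternatives each, their extremes of 0.57 and -0.91 arising with a pseudocount of 0.1, and from 0.07 to 0.14 and -0.33 to -0.11 with 1 library left out. No direction reversed. The Gfi1 to Ctsg ratio was 2.89 to 3.16 with 1 library left out.

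With the replicate block, 2 genes and 0 members were called, and the adjusted p of Gfi1 was 0.515 and that of Ctsg 0.566 by limma. Same-numbered libraries correlated at -0.0317, 0.0181 and 0.0479 in their deviations from the group means, so the numbers gave no sign of pairing. Depth limits 8 of the 10 members, which lay under 1 FPKM, and Ctsg, at 51 to 81 fragments per library.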

Other observations

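Several genes stood apart from the rest of their own lists. Cxcr2 was at 33.80, 33.17 and 33.48 FPKM in control and 36.37, 34.07 and 34.35 FPKM in metformin libraries, whereas no other of the 16 secondary granule and late neutrophil genes reached 1 FPKM and the next, Mmp8, was at 0.957 FPKM. Adgre1 was at 58.3 FPKM and Fcgr1, a high-affinity IgG receptor of monocytes, at 4.83 FPKM, while the other 8 monocyte and macrophage markers were under 0.1 FPKM. Cybb was at 0 in every library beside its membrane partner Cyba at 79.8 FPKM, and Csf2ra, the ligand-binding chain of the GM-CSF receptor, was at 0.737 FPKM beside Csf2rb at 146 FPKM.

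Cpa3 was at 355.6, 385.6 and 357.2 FPKM in control and 348.1, 329.6 and 335.9 FPKM in metformin libraries. All metformin values of Cpa3 lay below the control values, with a log2 fold change of -0.11 and an adjusted p of 0.369 by limma, so this difference did not pass the test. With no filter on low values, Lyz2 had a log2 difference of -0.45 and an adjusted p of 0.497 by limma.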
